A study of Mus musculus with 6 samples.

Results

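Transcripts of 10 genes that mark astrocytes were followed in cells purified from mouse brain with microbeads against O4, a surface antigen of the oligodendrocyte lineage. The 10 genes, Aqp4, Gfap, Slc1a2, Slc1a3, Aldh1l1, Gja1, Gjb6, Fgfr3, Aldoc and Clu, were taken by symbol from the 55492 genes in the table, a rule that uses no measured value. They lie on chromosomes 18 (Aqp4), 11 (Gfap and Aldoc), 2 (Slc1a2), 15 (Slc1a3), 6 (Aldh1l1), 10 (Gja1), 14 (Gjb6 and Clu) and 5 (Fgfr3). All 10 were measured above the filter on low values (a mean of at least 0.5 TPM, a transcript level per length, on the same total in each library). Of the 6 libraries 3 came from WT mice and 3 from Npc1-/- mice, which carry the Npc1nih allele on both copies, lack the lysosomal cholesterol transporter that this gene encodes, and are a model of Niemann-Pick C disease. Mice were littermates on a hybrid background of BALB/cJ and C57BL6/J and were 16 days old (P16). Cells were taken from the whole brain of untreated mice, so that cerebellum and forebrain are mixed. Each library is 1 biological replicate, taken here as 1 mouse, since the sources used do not state the number of mice per library. The allele is carried by every cell of the mutant mice, astrocytes included.

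Astrocytes are glia that clear glutamate and potassium from the extracellular space, wrap blood vessels with endfeet, join into networks through connexin channels and feed neurons and oligodendrocytes. When tissue is injured or diseased they become reactive, a state whose classical sign is more of the filament protein GFAP. O4 is not a defining antigen of astrocytes, and several of the 10 genes, such as Clu, Gja1, Fgfr3 and Aldoc, are also made by other cells. In bulk RNA fewer cells of a type and less RNA per cell cannot be told apart.

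The libraries held an estimated 40500000 to 50000000 fragments. Npc1 itself was at 53.3, 50.4 and 45.5 TPM in the WT libraries and at 4.10, 4.42 and 3.16 TPM in the Npc1-/- libraries, in keeping with the labels (log2 fold change −3.17, SE 0.12, adjusted p = 0.000398 by limma). Mbp, a myelin protein gene, took 18.8 to 26.1% of all TPM, while the 10 astrocyte genes together took 0.0756 to 0.154%. Because such abundant transcripts shift all other shares, TPM was divided by a size factor per library (median of ratios), and the result, called scaled TPM, is comparable between genes per length of transcript. One Npc1-/- library, replicate 3, had Xist at 15.6 TPM and no Ddx3y, and the other 5 had Ddx3y at 14.4 to 23.6 TPM and Xist at most at 0.01 TPM, so the sexes were not balanced between the genotypes.

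Sequences upstream of 3 of the genes are shown first because these genes take different sides of the comparison that follows. Gfap encodes the filament protein, Slc1a3 a glutamate transporter and Gja1 the main astrocyte connexin. They are RefSeq promoter windows of GRCm38.p6, from 250 bases before to 50 bases after the annotated start, read 5′ to 3′ on the gene's strand. Those of Gfap and Slc1a3 hold TTCNNNGAA, the letters of the STAT binding motif, and that of Gja1 holds TGANTCA, the letters of the AP-1 motif, in capitals. The Gfap window lies at chr11:102897151-102897450 (minus strand), the Slc1a3 window at chr15:8710758-8711057 (minus strand) and the Gja1 window at chr10:56377050-56377349 (plus strand).
Gfap promoter: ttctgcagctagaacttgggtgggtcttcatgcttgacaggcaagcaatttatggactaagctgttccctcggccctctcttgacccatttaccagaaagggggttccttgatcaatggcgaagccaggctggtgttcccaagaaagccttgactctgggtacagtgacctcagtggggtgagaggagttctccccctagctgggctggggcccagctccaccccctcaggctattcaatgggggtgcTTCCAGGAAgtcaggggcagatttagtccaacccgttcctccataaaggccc
Slc1a3 promoter: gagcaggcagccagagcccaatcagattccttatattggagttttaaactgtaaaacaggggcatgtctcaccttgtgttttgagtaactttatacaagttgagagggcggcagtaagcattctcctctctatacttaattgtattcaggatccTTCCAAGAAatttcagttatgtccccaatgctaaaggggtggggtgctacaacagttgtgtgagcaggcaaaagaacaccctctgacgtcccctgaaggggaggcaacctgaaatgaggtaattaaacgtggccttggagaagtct
Gja1 promoter: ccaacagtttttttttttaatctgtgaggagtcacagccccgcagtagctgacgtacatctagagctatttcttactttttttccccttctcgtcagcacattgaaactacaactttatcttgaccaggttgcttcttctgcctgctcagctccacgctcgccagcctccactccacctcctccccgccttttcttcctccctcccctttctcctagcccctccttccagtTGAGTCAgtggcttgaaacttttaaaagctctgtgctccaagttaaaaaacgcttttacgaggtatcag
Windows were found for 8 of the 10 members (10 windows), and both motifs read the same on either strand. TTCNNNGAA was in the windows of 3 members, Aldoc, Gfap and Slc1a3, against 8.3% of all 32851 promoters of the table, and TGANTCA in that of 1 member, Gja1, against 7.81%. The matches are a description of letters, and the 2 genes shown with the STAT letters, Gfap and Slc1a3, lay on opposite sides of the comparison between genotypes.

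No member passed the test between genotypes (limma across 15245 genes, adjusted p below 0.05 and absolute log2 fold change of at least 0.1), where 0.813% of the genes did, 0.4% higher and 0.413% lower in Npc1-/-. At an unadjusted p below 0.05 there were 6 members, 1 higher (Gfap) and 5 lower (Slc1a2, Slc1a3, Gja1, Fgfr3 and Clu), against 22.2% of all genes, 10.6% higher and 11.6% lower. In 7 members every Npc1-/- library lay below every WT library, and in Gfap every one lay above. Over all genes the groups did not overlap in 27.5%, 14.2% lower and 13.3% higher. The median log2 fold change of the 10 was −0.69 beside 0.01 over all genes, and 9 of the 10 were below 0. With 3 libraries against 3 an exact permutation test cannot give a two-sided p under 0.1, which it gave for each of the 8 members without overlap. Without Npc1-/- replicate 3, the library with Xist, all 10 were without overlap (9 lower, against 20.2% of all genes, and Gfap higher, against 20.5%). In that fit 2 were called lower (Slc1a2 and Fgfr3), against 2.45% of all genes.

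The count of calls depended on how libraries were scaled and which genes were tested. On TPM as deposited, without size factors, 5 members were called lower (Slc1a2, Slc1a3, Gja1, Fgfr3 and Clu), where 6.06% of all genes were called, 5.71% lower and 0.354% higher, and the median over all genes itself was −0.33. Relative to that shift the median of the members was −0.74, close to its value on scaled TPM. On that scale 9 members lay below and Gfap above without overlap, against 25.6% and 2.58% of all genes. With only genes of at least 5 TPM tested, 4 members were called lower (Slc1a2, Slc1a3, Gja1 and Clu), against 2.97% of those genes, and with quantile normalization 1 was (Slc1a2), against 0.872%.

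**Figure D1:**
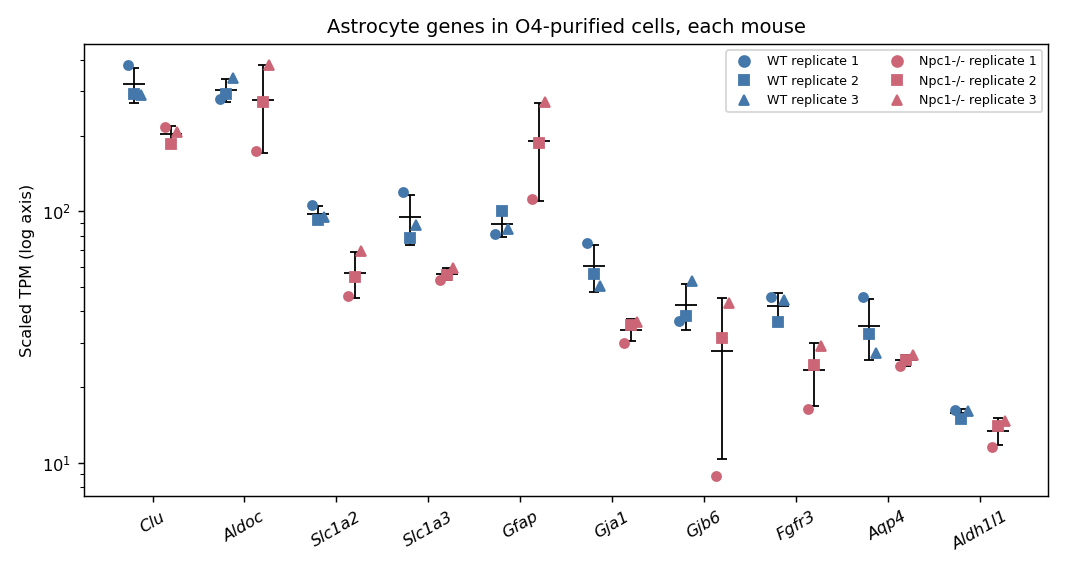
Scaled TPM (log axis) of the 10 astrocyte genes in each mouse, ordered by WT mean, WT in blue and Npc1-/- in red, with black bars for the mean and SD of 3. Red points lie below blue ones in 7 genes, above them in Gfap (111.6 to 271.5 against 81.1 to 100.2) and among them in Gjb6 and Aldoc.

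The 2 glutamate transporters of astrocytes lay lower in Npc1-/-. Slc1a2, which encodes the transporter that removes most of the synaptic glutamate in the forebrain, was at 106, 92.6 and 95.0 scaled TPM in WT and at 46.2, 54.9 and 69.5 in Npc1-/- mice. The lowest WT library stood above the highest mutant one, and the fitted log2 fold change was −0.79 (SE 0.15, adjusted p = 0.0557, limma). Slc1a3, the transporter that is abundant in Bergmann glia of the cerebellum and in radial glia, was at 119.2, 78.1 and 88.4 in WT and at 53.3, 55.8 and 59.4 in Npc1-/- mice. Here too the groups were apart, with a log2 fold change of −0.73 (SE 0.16, adjusted p = 0.0623) and a WT spread (SD 21.4, n = 3) larger than that of the mutants (SD 3.10, n = 3). The ratio of the first to the second within a library overlapped between genotypes, from 0.889 to 1.19 in WT and from 0.868 to 1.17 in Npc1-/- (exact permutation test, two-sided p = 0.7, n = 3 against 3). Of the other transporters of the family, Slc1a1, which neurons and other cells use, had a log2 fold change of −0.34 (SE 0.15, adjusted p = 0.247) with overlapping groups. The Purkinje cell transporter Slc1a6, near the filter on low values, was at 0.549 to 0.777 in WT and at 0.936 to 1.71 in Npc1-/- scaled TPM (0.58, SE 0.22, adjusted p = 0.179, limma). Its groups overlapped on TPM as deposited.

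The 2 connexins that couple astrocytes differed in their spread. Gja1 was at 74.7, 56.4 and 50.4 scaled TPM in WT and at 29.9, 35.3 and 36.4 in Npc1-/- mice. All mutant values lay below all WT values, with a log2 fold change of −0.81 (SE 0.16, adjusted p = 0.0567, limma). Gjb6, the second astrocyte connexin, was at 36.7, 38.4 and 52.7 in WT and at 8.86, 31.4 and 43.3 in Npc1-/- mice. The groups overlapped, and Npc1-/- replicate 1 alone was far below the rest, so that the log2 fold change of −0.85 (SE 0.53, adjusted p = 0.402) was −0.18 without it. That value rests on about 549 fragments, the fewest behind any member value, if all came from the longest coding transcript.

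Gjb1, an oligodendrocyte connexin gene, lay on the other side. Its product joins layers of the myelin sheath to each other. Gjb1 was called higher, at 55.3, 66.7 and 68.1 scaled TPM in WT and at 139.7, 168 and 144.6 in Npc1-/- (log2 fold change 1.25, SE 0.12, adjusted p = 0.0134, limma), a call that was lost without WT replicate 2, WT replicate 3 or Npc1-/- replicate 2 (adjusted p = 0.0697, 0.0685 and 0.0792). The ratio of Gjb6 to Gjb1 within a library was 0.664, 0.575 and 0.773 in WT and 0.0634, 0.187 and 0.30 in Npc1-/-. The ratio was apart between the genotypes, and the size factor cancels within a library. Gjb6 alone overlapped between the genotypes. Gjb1 was named because it was called, and its higher values in Npc1-/- widen that ratio.

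**Figure D2:**
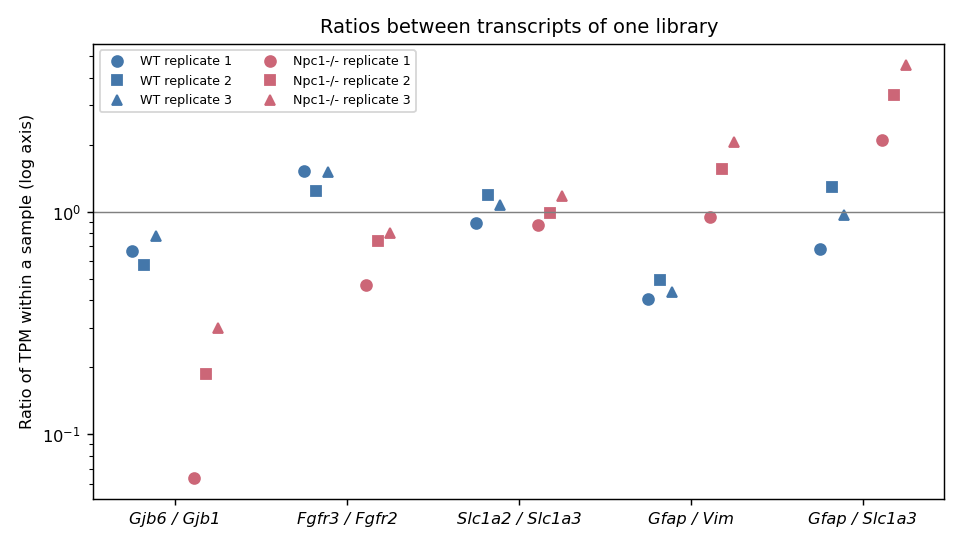
Ratios of TPM between transcripts of the same library (log axis, grey line at 1), WT in blue and Npc1-/- in red, one marker shape per replicate number. Gjb6 to Gjb1 and Fgfr3 to Fgfr2 are lower in every Npc1-/- library, Gfap to Vim and Gfap to Slc1a3 are higher in every one, and Slc1a2 to Slc1a3 overlaps. In the ratios that are apart, other than Gjb6 to Gjb1, both genes already lay on opposite sides without overlap.

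Gfap was the 1 member with a fitted difference above 0. Its transcript was at 81.1, 100.2 and 85.2 scaled TPM in WT and at 111.6, 186.7 and 271.5 in Npc1-/- mice. The mean was 2.14 times the WT mean, and the mutant libraries were spread more widely than the WT libraries (SD 80.0 against 10.1, n = 3 each). The log2 fold change was 1.01 (SE 0.29, adjusted p = 0.108, limma). Leaving out single libraries moved it between 0.70 (without Npc1-/- replicate 3, the highest library and the one with Xist) and 1.34 (without Npc1-/- replicate 1), without a call. The ratio of Gfap to the geometric mean of the other 9 members was 1.02, 1.52 and 1.21 in WT and 3.07, 3.84 and 4.80 in Npc1-/- libraries. These 9 were set apart after values were seen, and their fitted differences below 0 widen that ratio. Gfap to Mbp was 0.000559, 0.000500 and 0.000422 in WT and 0.000608, 0.000646 and 0.000755 in Npc1-/-, apart by less. Mbp itself had a log2 fold change of 0.57 (SE 0.89) with overlapping groups.

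Vim, which encodes vimentin, the filament protein that GFAP polymerizes with, lay on the opposite side. It was at 200.9, 204 and 195 scaled TPM in WT and at 118, 120 and 133 in Npc1-/- libraries, and was called lower (log2 fold change −0.69, SE 0.09, adjusted p = 0.0364, limma). The call was lost when WT replicate 1, 2 or 3 or Npc1-/- replicate 1 or 2 was left out (adjusted p from 0.0616 to 0.172), with no filter on low values (0.0674) and without the trend (0.0587). Vimentin is also made by endothelial cells, microglia and progenitors. The ratio of Gfap to Vim was 0.404, 0.491 and 0.436 in WT and 0.946, 1.55 and 2.04 in Npc1-/-. Since Gfap lay higher and Vim lower, each without overlap, this ratio had to be apart.

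**Figure D3:**
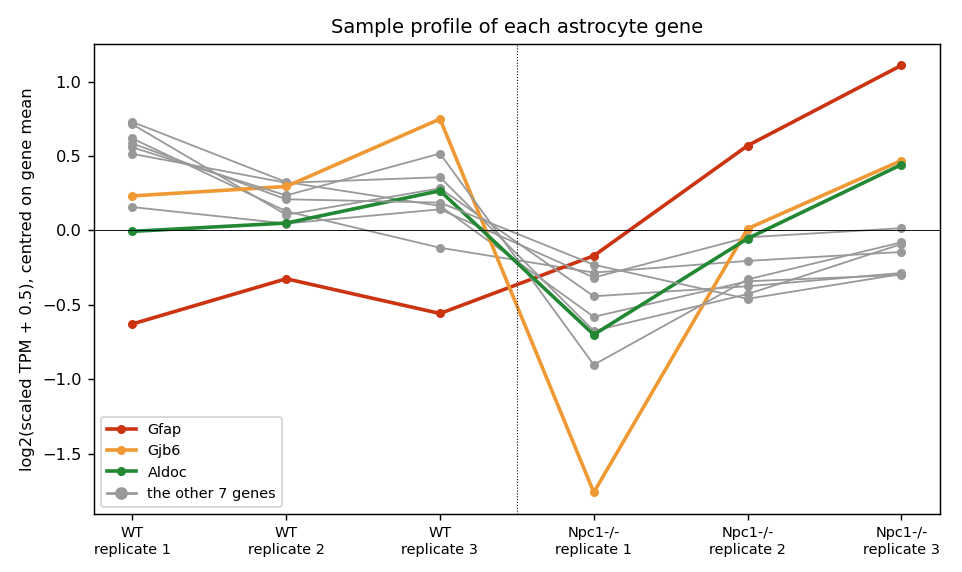
Profile of each member over the 6 libraries as log2(scaled TPM + 0.5) minus the gene's mean, with the dotted line between the genotypes. Gfap (red) is below 0 in all WT and highest in Npc1-/- replicates 2 and 3, Gjb6 (orange) and Aldoc (green) dip in Npc1-/- replicate 1, and the other 7 genes (grey) lie lower in Npc1-/-.

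Among members of the endfoot and of signalling, Aqp4 was the least separated of those without overlap. Aqp4 encodes the water channel of perivascular endfeet and was at 45.7, 32.4 and 27.3 scaled TPM in WT and at 24.2, 25.6 and 26.7 in Npc1-/- libraries. The highest mutant library was just under the lowest WT library (log2 fold change −0.42, SE 0.18, adjusted p = 0.225, limma). Aqp4 lies on chromosome 18 (GRCm38, 15389496 to 15410982, minus strand), 3.153 Mb from Npc1 itself, so it lies close to the locus that defines the genotypes.

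Fgfr3, a receptor for fibroblast growth factors in astrocytes and their precursors, was at 45.7, 36.4 and 44.4 scaled TPM in WT and at 16.3, 24.5 and 29.2 in Npc1-/- libraries. The groups were apart and the log2 fold change, −0.87 (SE 0.21, adjusted p = 0.0755, limma), was the most negative of the 10. Of its relatives, Fgfr2, which oligodendrocytes use, had 0.23 (SE 0.08, adjusted p = 0.149) and Fgfr1 had −0.32 (SE 0.10, adjusted p = 0.119). The ratio of Fgfr3 to Fgfr2 was 1.51, 1.24 and 1.51 in WT and 0.468, 0.739 and 0.802 in Npc1-/-, so that Fgfr3 was the more abundant of the 2 in every WT library and the less abundant in every mutant one. Since Fgfr3 lay lower and Fgfr2 higher, each without overlap, this ratio had to be apart.

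The metabolic members had the smallest fitted differences. Aldh1l1, the folate enzyme whose gene is used to mark astrocytes in reporter mice, was at 16.2, 15.0 and 16.0 scaled TPM in WT and at 11.5, 14.01 and 14.6 in Npc1-/- mice. It had no overlap at a small difference (log2 fold change −0.23, SE 0.11, adjusted p = 0.281, limma). Its mitochondrial paralog Aldh1l2 lay above WT, at 3.48 to 4.48 against 5.91 to 7.22 scaled TPM (0.63, SE 0.14, adjusted p = 0.0623). Aldoc, the brain aldolase that astrocytes and Purkinje cells make, was at 281, 292 and 340 in WT and at 174, 272 and 384 in Npc1-/- mice. The groups overlapped, and the log2 fold change of −0.21 (SE 0.27, adjusted p = 0.708) became 0.09 without Npc1-/- replicate 1. The general aldolase Aldoa had a log2 fold change of 0.00 (SE 0.10).

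Clu, which encodes the secreted chaperone and lipid carrier clusterin, was at 381, 294 and 289 scaled TPM in WT and at 216, 185 and 207 in Npc1-/- mice. The groups were apart, with a log2 fold change of −0.65 (SE 0.14, adjusted p = 0.0602, limma). Apoe, the other abundant lipid carrier of astrocytes, also made by microglia, was at 3235 to 3893 in WT and at 2240 to 3135 in Npc1-/- scaled TPM (−0.39, SE 0.19, adjusted p = 0.298).

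**Figure D4:**
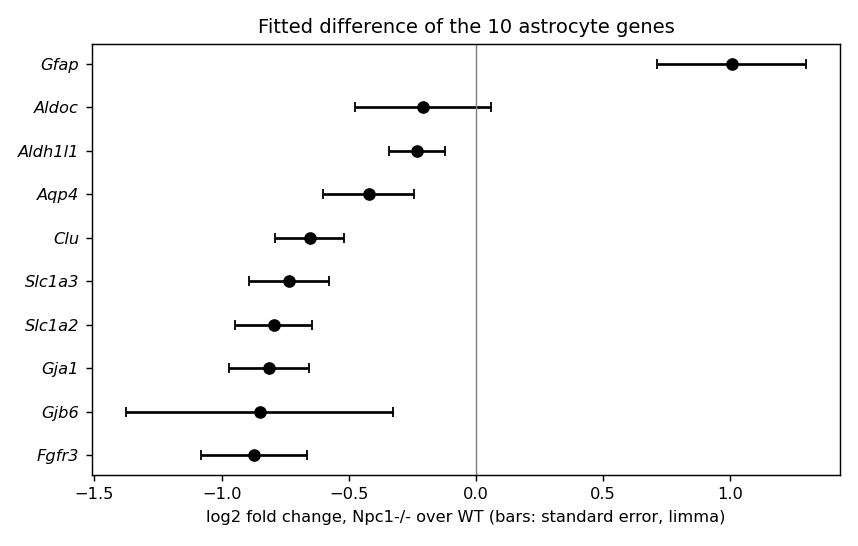
Fitted log2 fold change of each member, Npc1-/- over WT, with bars of 1 standard error from limma on log2(scaled TPM + 0.5). Gfap stands at 1.01 and the other 9 between −0.87 and −0.21, with the widest bar at Gjb6 (SE 0.53).

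Gfap stood the fifth in level among the members in WT and the third in Npc1-/- mice. In WT mice the order was Clu, Aldoc, Slc1a2, Slc1a3, Gfap, Gja1, Gjb6, Fgfr3, Aqp4 and Aldh1l1, from a mean of 321.2 to 15.7 scaled TPM. Neighbours in this order overlapped in their range over the 3 mice except Aldoc and Slc1a2, Gfap and Gja1, and Aqp4 and Aldh1l1. In Npc1-/- mice the order was Aldoc, Clu, Gfap, Slc1a2, Slc1a3, Gja1, Gjb6, Aqp4, Fgfr3 and Aldh1l1, from a mean of 277 to 13.4, and the neighbours that did not overlap were Gfap and Slc1a2, Slc1a3 and Gja1, and Fgfr3 and Aldh1l1. Within single libraries Gfap took rank 3 to 5 in WT and rank 2 or 3 in Npc1-/-. Summed over the 9 members other than Gfap, a sum chosen after values were seen, scaled TPM was 935 to 1106 in WT and 580 to 870 in Npc1-/-, while with Gfap the sums overlapped (1035 to 1187 and 692 to 1142).

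Other astrocyte genes, a list of 52 in 7 role groups, mostly lay below WT. Only Vim was called lower and none higher, against 0.413% lower and 0.4% higher of all genes. At an unadjusted p below 0.05 there were 26 lower and 1 higher, against 11.6% and 10.6% of all genes. Of the 52, 44 had a log2 fold change below 0, the median was −0.40, and in 29 the groups did not overlap, all of them lower (14.2% over all genes). Among genes for amino acid uptake, 3 of 6 were lower without overlap. In that group Slc7a10, a serine and glycine transporter, had −0.73 (SE 0.22, adjusted p = 0.112, limma), and Glul, glutamine synthetase, which oligodendrocytes also make, had 0.20 (SE 0.36) over 333 to 958 scaled TPM in mutants. Among genes for ion transport, 5 of 6 were lower without overlap, with the bicarbonate transporter Slc4a4 at −0.74 (SE 0.12, adjusted p = 0.0503) and Ttyh1 at −0.41 (SE 0.09, adjusted p = 0.0623).

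Junction and endfoot genes were lower without overlap in 2 of 6, beside 14.2% of all genes for this and the following counts. These were the endfoot membrane protein gene Mlc1 at −0.60 (SE 0.14, adjusted p = 0.0769, limma) and Dag1, dystroglycan, at −0.53 (SE 0.17, adjusted p = 0.123). Of the 3 filament genes Nes, which encodes the nestin of progenitors, had −0.89 (SE 0.23, adjusted p = 0.0839). Of 6 transcription factor genes 3 were lower without overlap, with Id3, an inhibitor of differentiation factors, at −0.47 (SE 0.10, adjusted p = 0.0589) and Lhx2 at −0.59 (SE 0.14, adjusted p = 0.0733). The metabolic group had 5 of 9 lower without overlap, with Pla2g7 at −0.61 (SE 0.17, adjusted p = 0.0994), and the secreted and surface group 9 of 16. S100b, which encodes a calcium-binding protein of astrocytes and of oligodendrocyte lineage cells, was on the side of Gfap, at 621, 843 and 1049 scaled TPM in WT and 966, 1622 and 2282 in Npc1-/- (0.90, SE 0.33, adjusted p = 0.174). Its groups overlapped.

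Genes that reactive astrocytes are known to raise had values on both sides of WT. Of 12 listed, 11 were measured, none was called by limma, 4 had a log2 fold change above 0 and 7 below, and the median was −0.05. At an unadjusted p below 0.05 there were 1 higher and 3 lower, against 10.6% and 11.6% of all genes. Without overlap there were 1 higher and 2 lower, against 13.3% and 14.2%. The higher one, Cd44, a gene named after its value was seen, was at 0.841 to 0.980 scaled TPM in WT and 1.12 to 1.56 in Npc1-/-. Its groups overlapped on TPM as deposited. C4b, the complement gene, was at 1.97, 2.74 and 2.07 scaled TPM in WT and at 2.42, 4.22 and 5.37 in Npc1-/- (0.66, SE 0.26, adjusted p = 0.199), and its groups overlapped. The sphingosine phosphate receptor S1pr3 had −0.84 (SE 0.16, adjusted p = 0.0557) and Osmr, the receptor for oncostatin M, had −0.78 (SE 0.15, adjusted p = 0.0566), a gene named after its value was seen. Stat3, the factor that binds the motif shown above, was at 24.3 to 26.2 in WT and at 19.6 to 29.0 in Npc1-/- scaled TPM (−0.05, SE 0.14).

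Markers of endothelial cells and most markers of microglia, which O4 does not select, also lay lower in Npc1-/-. Those of neurons overlapped between the genotypes in 7 of 9. Their summed scaled TPM was higher without overlap, at 87.7 to 123 in WT and 138 to 188 in Npc1-/-. In the list of 9 endothelial genes, none at 0, the median log2 fold change was −0.79 and none was called. Without overlap 8 were lower, against 14.2% of all genes, and summed scaled TPM was 947 to 1115 in WT and 489 to 787 in Npc1-/-. In the list of 9 microglial genes, none at 0, the median was −0.84, 8 of the 9 were below 0 (Aif1 at −0.01) and Sall1 was at 0.23. Without overlap 5 were lower, against the same 14.2% of all genes, and the sum was 180 to 284 in WT and 86.1 to 158 in Npc1-/-. Tmem119 was the 1 microglial gene called (log2 fold change −1.44, SE 0.22, adjusted p = 0.0442, limma), and the call was lost when WT replicate 1, 2 or 3 or Npc1-/- replicate 1 or 2 was left out (adjusted p from 0.0681 to 0.184), with no filter on low values (0.117) and without the trend (0.0678). The members' median of −0.69 lay near these medians, and the part of these cells in the members' values was not tested.

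The lists of the O4-selected lineage and of neurons had other medians. The 10 oligodendrocyte genes had a median of 0.39, with 3 higher without overlap (13.3% over all genes) and none called. The 9 genes of progenitors and committed cells had a median of −0.09, with overlap in all 9. The 9 neuronal genes, all above 0, had a median of 0.33, with overlap in 7. The other 2, Nefl and Nefm, were higher without overlap (13.3% over all genes) and were called higher. Both calls were lost in 5 of the 6 fits that leave out a library, that of Nefl also with no filter (adjusted p = 0.0528) and that of Nefm also on TPM as deposited (adjusted p = 0.0777). Bergmann glia genes, which bear on Slc1a3 because whole brain includes cerebellum, had a median of −0.23. Of the 4, Hopx alone was higher without overlap (0.51, SE 0.11, adjusted p = 0.0619, limma), where 13.3% of all genes were. The 4 ependymal genes measured had a median of −0.60.

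**Figure D5:**
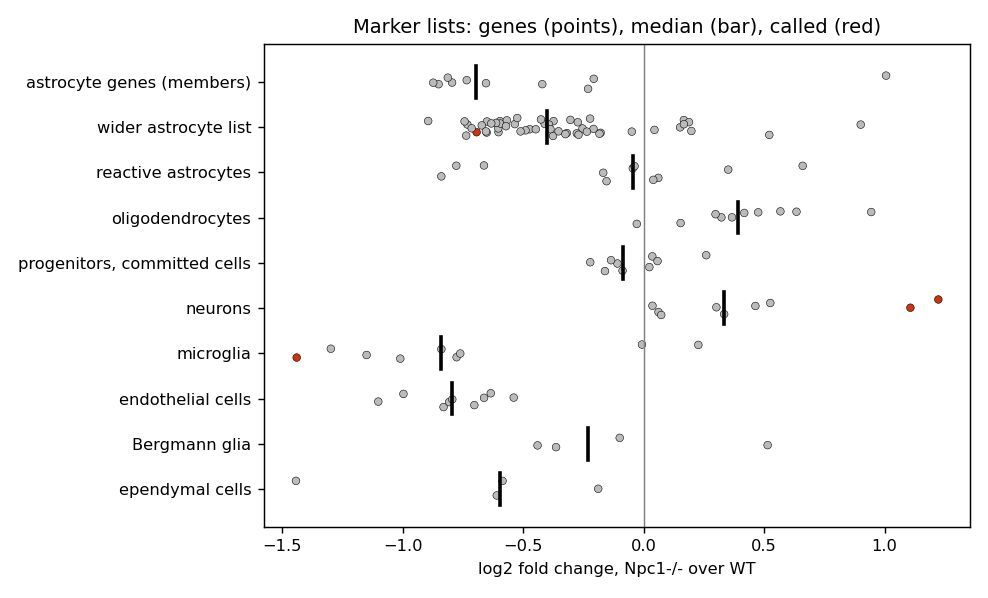
Log2 fold change, Npc1-/- over WT, of each gene in 10 marker lists (points, spread vertically for display), with the median as a black bar and genes called by limma in red. The members (median −0.69) and the wider astrocyte list (−0.40) lie to the left with microglia (−0.84) and endothelial cells (−0.79), and oligodendrocytes (0.39) and neurons (0.33) lie to the right.

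The genes outside the list whose profile over the 6 libraries was nearest to the mean profile of the 10 members were Prodh, Cbs, Sparc, Lrrc8a, Sdc4 and Isyna1, out of 9150 genes with a mean of at least 5 TPM. The root mean square difference on the log2 scale was 0.0506 for Prodh, the mitochondrial proline dehydrogenase, and 0.0731 for Isyna1. Prodh was at 9.95, 9.43 and 9.49 scaled TPM in WT and at 5.29, 7.69 and 8.66 in Npc1-/- libraries. Sparc, a matrix protein gene of astrocytes, microglia and endothelial cells, was at 585 to 666 in WT and at 340 to 511 in Npc1-/-. Each of the 6 was lower in Npc1-/- replicate 1 than in any other library. This follows from how they were picked, since the mean profile of the members was also lowest there. None of the 6 was called, and Cbs and Sparc belong to the wider astrocyte list.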

How the data were processed

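RNA of O4-microbead-purified cells from 3 WT and 3 Npc1-/- biological replicates was sequenced after poly(A) selection. The authors deposited gene tables of TPM and FPKM, both with 2 decimals; the FPKM table served as an alternative and for depth. Per the labels, the submitters' processing notes name cutadapt 2.3, STAR 2.7.8a, RSEM 1.3.3 and GRCm38 (mm10), while the study's methods name bbduk, STAR and featureCounts, so how the deposited TPM and FPKM were made is not settled, and use of strand is not given in the sources used here. Counts were not used here, so a model for log values replaced the authors' count model and their thresholds were kept.

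TPM was divided by median-of-ratios size factors (0.727 to 1.30) and log2 was taken with a pseudocount of 0.5. All 15245 genes whose TPM averaged 0.5 or more entered a limma 3.58.1 fit (R 4.3.3, eBayes with trend, genotype only, two-sided, Benjamini-Hochberg adjustment over all genes). Standard errors, and every adjusted p, come from this fit, and fold changes are on the log2(scaled TPM + 0.5) scale. Single values were also compared by an exact two-sided permutation test over the 6 libraries. The fit was also run on simulated data with independent noise and changes larger than those fitted for the members. That run does not cover changes as small as theirs.

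Depth was estimated from low FPKM of single-transcript genes, which step by the worth of 1 fragment (82.1 to 87.0% within 0.15 of a whole number, where chance gives 30.0%). Exonic overlap of members with other genes was checked in GENCODE M21, and the overlapping gene with the highest level, on the other strand of Fgfr3, had a mean of 0.403 TPM.

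The members, the lists and the tests were chosen with earlier results of these data known. Named are the 10 members, Npc1, the genes called in the other lists, in each role group the gene with the highest mean and the one with the largest absolute log2 fold change (the text gives those that bear on the members), and the 6 genes of nearest profile. Alternatives were quantile normalization, FPKM, unscaled TPM, a pseudocount of 0.1 or 1, a filter of 5 TPM or none, no trend, robust estimation, a correction for transcript length, a replicate block and each library left out.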

Additional observations from a re-analysis of the deposited data

How the results depend on the processing

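Of the 10 members, the number called was 5 on TPM as deposited, 1 with quantile normalization (Slc1a2), 4 with a filter of 5 TPM (Slc1a2, Slc1a3, Gja1 and Clu), 0 to 2 when single libraries were left out (2 without Npc1-/- replicate 3, Slc1a2 and Fgfr3, both lower, where 3.16% of all genes were called, 2.45% lower), and 0 under the other 7 settings. All genes called, 124 as reported, were 924 on TPM as deposited (54 higher and 870 lower, against 61 and 63), 225 with quantile normalization, 21 with no filter, 447 with a filter of 5 TPM, 42 without trend, and 4 to 486 when a library was left out. In the wider list, 1 as reported, they were 22, 5, 0, 5 and 0 under those settings in the same order and 0 to 7 when a library was left out. The median of the members was −1.07 on TPM as deposited and −0.51 to −0.78 with libraries left out. The number of members without overlap, an alternative chosen after seeing the data, was 8 to 10, with 10 reached without Npc1-/- replicate 3, where 20.5% and 20.2% of all genes lay higher and lower without overlap. With libraries left out, Aldoc ranged from −0.48 (without Npc1-/- replicate 3) to 0.0933 (without Npc1-/- replicate 1, reversed), and on TPM as deposited it was −0.58. All other members, and Npc1, kept their direction under every setting run. The cause of these differences was not tested.

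With the replicate block, 6 members (Gfap higher; Slc1a2, Slc1a3, Gja1, Fgfr3 and Clu lower), 20 of the wider list and 2011 genes in all (13.2%) were called. The labels do not say that a number marks a shared litter or day, and deviations of same-numbered libraries correlated at 0.414, 0.0602 and 0.326, so the numbers were not taken as a pairing; each library did correlate best with its own number, a hint from the data and not from the design. The number of libraries, 3 per genotype, and the mix of sexes limit these values. Each member value rests on an estimated 549 fragments or more if all came from the longest coding transcript.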

Other observations

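Gfap was followed further after its values were seen. The genes whose profile over the 6 libraries was nearest to that of Gfap alone, among 9150 genes, were Anp32b, Npm1, Cyb5r3, Ncl, Utp3 and Zswim9, none of which is an astrocyte marker in the lists used. Npm1 and Ncl encode abundant nucleolar proteins. The nearest, Anp32b, was at 166, 212 and 225 scaled TPM in WT and at 261, 413 and 554 in Npc1-/- mice, with a root mean square difference from Gfap of 0.129 on the log2 scale. As in Gfap, the highest value was in Npc1-/- replicate 3, the library with the smallest size factor (0.727). The part of that scaling in these values was not tested; on TPM as deposited Gfap was at 105, 111 and 88.5 in WT and at 123, 160 and 197 in Npc1-/-, still without overlap. For the 9 members other than Gfap the nearest genes were Sparc, Maf, Sdc4, Tiam1, F3 and Nebl.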
